A study of Mus musculus with 6 samples.

Results

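The transcripts described here belong to 9 mouse genes for transcription factors that pattern the dorsal forebrain and the hippocampus: Emx2, Lhx2, Otx1, Pax6, Meis2, Zbtb20, Nfia, Nfib and Nfix. They were taken by symbol from a table of 14327 genes, by a rule that uses no measured value, and all 9 were found in it. The samples were 6 RNA libraries of neurospheres, which are floating clusters of neural stem and progenitor cells. The cells came from the hippocampus of newborn mice (postnatal day 0) and grew in a medium with B27, N2, EGF and bFGF. There were 3 libraries labelled cKO, from mice with a conditional knockout of Slc22a17, and 3 libraries from wild-type (WT) mice. The protein made from Slc22a17 binds lipocalin 2, a carrier of iron, at the cell surface. No source used here gives the strain, or the promoter and cell type that drove deletion. Whether replicates stand for separate cultures or animals is also not labelled, so each p-value covers library-to-library spread that could be technical.

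Early in development, graded expression of transcription factors divides the forebrain wall into regions, and the hippocampus forms at the dorsal and medial edge of the cortex next to the cortical hem. Lhx2 and Emx2 set cortical and hippocampal identity, Pax6 and Otx1 act in cortical progenitors, Meis2 is a homeodomain partner of Pax and Pbx proteins, and Zbtb20 is needed in mice for the identity of hippocampal pyramidal neurons. The nuclear factor I proteins Nfia, Nfib and Nfix act later. They bind DNA as dimers, drive the switch of progenitors from making neurons to making glia, and are required in mice for normal growth of the hippocampus. Because cultured cells have left their place in the brain, the first question is which of these transcripts they still hold. The second is whether the groups differ.

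All 9 transcripts were kept in culture, in both groups. Each reached at least 1 FPKM (fragments per kilobase of transcript scaled to the mapped fragments of a library, the deposited unit) in 6 of 6 libraries, and each also reached 5 FPKM in all of them. Of all genes in the table, 78.4% reached 1 FPKM in all 6 libraries and 58.5% reached 5 FPKM. At 10 FPKM, 8 of the 9 genes remained, against 42.6% of the table, and the gene left out was Zbtb20. None of the 6 libraries was of uncultured tissue. The word kept therefore means a level reached in culture, and a change from the hippocampus was not tested. No difference between the groups passed the threshold for any of the 9 genes.

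The promoters of Lhx2, Emx2 and Pax6 are shown because for these 3 genes the reference window lies at the annotated start of the gene, so that a reader can see the DNA in front of a kept transcript. RefSeq windows of 300 bases, running from 250 before a start site to 50 after it on GRCm38.p6, matched 7 of the 9 genes with 12 windows in all. All 3 windows shown lie on the plus strand, and capitals mark each CG dinucleotide.

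Lhx2 promoter, chr2:38339031-38339330: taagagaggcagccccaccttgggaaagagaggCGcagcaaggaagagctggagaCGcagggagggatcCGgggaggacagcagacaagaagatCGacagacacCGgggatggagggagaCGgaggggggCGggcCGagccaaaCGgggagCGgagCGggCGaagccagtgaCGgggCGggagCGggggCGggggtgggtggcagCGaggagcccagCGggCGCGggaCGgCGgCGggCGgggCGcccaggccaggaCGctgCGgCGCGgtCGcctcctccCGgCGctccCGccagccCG
Emx2 promoter, chr19:59458440-59458739: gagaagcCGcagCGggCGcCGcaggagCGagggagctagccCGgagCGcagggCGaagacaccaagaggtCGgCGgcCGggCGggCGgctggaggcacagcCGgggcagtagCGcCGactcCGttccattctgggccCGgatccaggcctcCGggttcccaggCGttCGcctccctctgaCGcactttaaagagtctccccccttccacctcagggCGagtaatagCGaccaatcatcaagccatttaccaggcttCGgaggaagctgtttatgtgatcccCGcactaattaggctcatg
Pax6 promoter, chr2:105668646-105668945: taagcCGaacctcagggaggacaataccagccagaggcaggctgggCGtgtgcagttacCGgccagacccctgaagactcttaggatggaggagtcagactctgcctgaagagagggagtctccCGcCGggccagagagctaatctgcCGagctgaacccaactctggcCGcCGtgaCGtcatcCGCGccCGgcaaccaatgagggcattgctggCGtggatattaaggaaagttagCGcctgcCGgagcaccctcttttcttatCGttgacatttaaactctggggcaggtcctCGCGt

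The Lhx2 window holds 34 CG dinucleotides, the Emx2 window 26 and the Pax6 window 18. The median over 12054 windows of tested genes is 21, and over all 32851 windows of the reference it is 7. Across the 12 windows of these genes the count ran from 2, in Nfia and in 1 window of Nfix, to 34. The windows were also searched on both strands for 4 short motifs. The short element of nuclear factor I, TTGGC, was in 4 of the 12 windows (the first Lhx2 window and 3 windows of Nfix) and in 50.2% of the windows of tested genes. The homeodomain core TAATTA was in 2 of 12 windows (Emx2 and 1 of Nfix), against 2.46%. The CCAAT box, whose letters can overlap the reverse of TTGGC, was in 8 of 12, against 38.1%, and TATAAA was in 1 of 12 (Meis2), against 6.66%. These matches describe the letters of the windows only.

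Across the 6 libraries, Slc22a17 itself (gene identifier 59049) was at 164, 166 and 187 FPKM in libraries labelled cKO and at 181, 169 and 204 FPKM in WT (log2 fold change -0.097, SE 0.086, adjusted p = 0.707 in limma). An exact two-sided permutation test gave p = 0.5, where 0.1 is the smallest p that 3 against 3 can give. The target transcript was thus still present, whether the deleted part was counted is not given, and directions below are between libraries by label. Ddx3y plus Eif2s3y, transcripts of the Y chromosome, summed to 50.5, 43.8 and 51.2 FPKM in libraries labelled cKO and to 0.10, 0.07 and 25.9 FPKM in WT replicates 1 to 3, so label and Y-linked content cannot be told apart. Of 8 neural stem cell markers all 8 reached 1 FPKM in every library, led by Fabp7 (1917 ± 166 FPKM in libraries labelled cKO and 2071 ± 117 FPKM in WT, SD, n = 3 each) and Vim (996 ± 131 and 1086 ± 15.7 FPKM in the same order). Astrocyte and oligodendrocyte lineage markers also did so, 8 of 8 each. FPKM values hold no fragment totals, so no counting interval is given, and fewer cells of a type cannot be told apart from less RNA per cell.

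The levels spanned 8.14-fold from Nfix to Zbtb20. Averaged over 6 libraries, the order was Nfix at 76.1 FPKM, Nfib at 34.2, Lhx2 at 30.4, Meis2 at 23.4, Nfia at 19.1, Emx2 at 12.6, Pax6 at 11.9, Otx1 at 11.8 and Zbtb20 at 9.35 FPKM. By mean level Nfix lay above 93.1% of the genes of the table and Zbtb20 above 52.6%. Nfix was apart from Nfib in every library, with no overlap of their ranges. Nfib and Lhx2 had overlapping ranges, although Nfib was the higher in 6 of 6 libraries. Lhx2, Meis2, Nfia and Emx2 followed each other without overlap. The ranges of neighbours among Emx2, Pax6, Otx1 and Zbtb20 overlapped. Emx2 was above Pax6 in 5 of 6 libraries, and Otx1 was above Zbtb20 in 5 of 6. Emx2 was above Zbtb20 in every library. Pax6 was above Otx1 in only 3 of 6, so Pax6 and Otx1 have no fixed order.

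**Figure D1:**
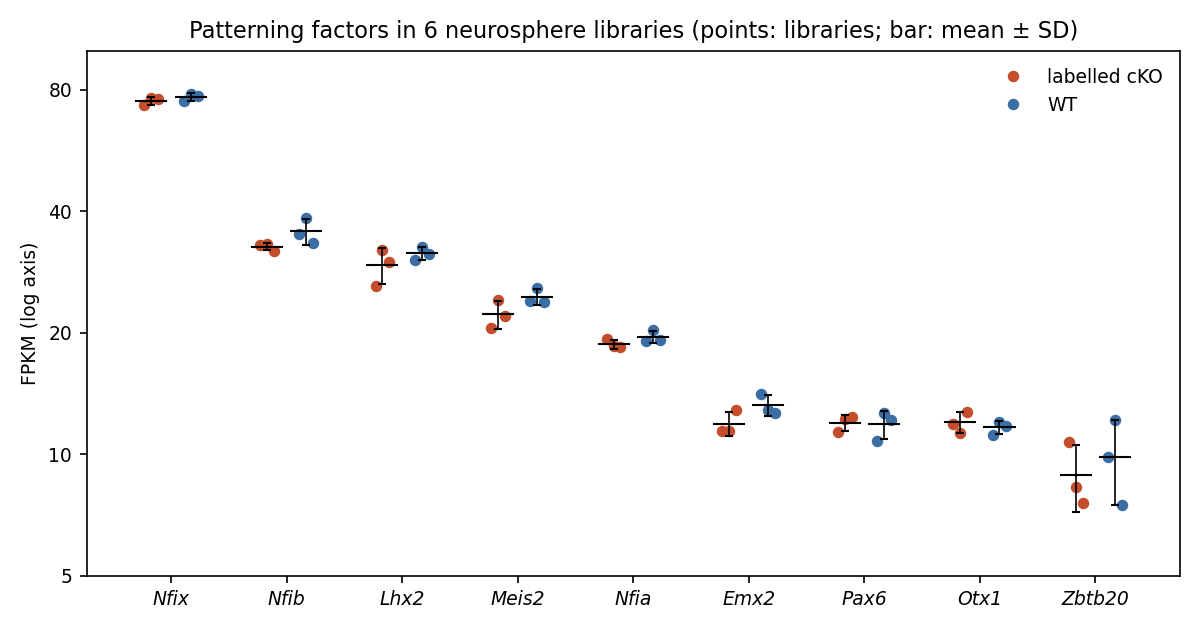
FPKM (log axis) of the 9 genes in the libraries labelled cKO (left, red) and WT (right, blue). Points are libraries and bars are mean ± SD of 3. The groups lie close together for every gene, from about 76.1 FPKM for Nfix down to 9.35 FPKM for Zbtb20, where the points spread most.

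Emx2 (identifier 13797, chromosome 19, 59458690 to 59465357 in GRCm38), a homeodomain factor without which mice form no dentate gyrus, was at 11.4, 11.4 and 12.8 FPKM in libraries labelled cKO and at 14.1, 12.9 and 12.6 FPKM in WT. Replicate 3 of the libraries labelled cKO lay among the WT values, and the other two lay below all of them. The means were 11.9 ± 0.823 and 13.2 ± 0.796 FPKM (SD, n = 3 each, libraries labelled cKO first), and the log2 fold change was -0.14 (SE 0.073, 95% interval -0.31 to 0.027, adjusted p = 0.478 in limma). Emx1, its relative in the developing cortex, was far lower, with 1.20, 0.69 and 1.07 FPKM in libraries labelled cKO and 1.29, 1.20 and 1.13 FPKM in WT. Emx2 thus made up 90.5% to 94.3% of the summed FPKM of the pair in every library.

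Lhx2 (identifier 16870, chromosome 2, 38339271 to 38369737), a LIM-homeodomain factor that keeps cortical progenitors from becoming hem, was at 26.2, 32.1 and 30.0 FPKM in libraries labelled cKO and at 30.3, 32.7 and 31.4 FPKM in WT. The groups overlapped, and replicate 1 of the libraries labelled cKO was the lowest of the 6. Its log2 fold change was -0.098 (SE 0.079, 95% interval -0.28 to 0.082, adjusted p = 0.668). Meis2 (identifier 17536, chromosome 2, 115861264 to 116067537) was at 20.6, 24.1 and 22.0 FPKM in libraries labelled cKO and at 24.0, 25.9 and 23.9 FPKM in WT. The same replicate 1 was again the lowest, replicate 2 lay within the WT range, and the groups overlapped. Meis2 had the largest log2 fold change in size among the 9 genes, -0.14 (SE 0.071, 95% interval -0.30 to 0.020, adjusted p = 0.465), closely followed by Emx2.

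Pax6 (identifier 18508, chromosome 2, 105668896 to 105698410), a paired-box and homeodomain factor of radial glia that promotes the formation of neurons, was at 11.4, 12.2 and 12.4 FPKM in libraries labelled cKO and at 10.8, 12.6 and 12.1 FPKM in WT. All 3 values of the libraries labelled cKO lay inside the WT range. The log2 fold change was 0.015 (SE 0.075, 95% interval -0.16 to 0.19, adjusted p = 0.962). Otx1 (identifier 18423, chromosome 11, 21994764 to 22001651), a homeodomain factor of cortical progenitors and deep-layer neurons, was at 11.9, 11.3 and 12.8 FPKM in libraries labelled cKO and at 11.2, 12 and 11.8 FPKM in WT. The ranges overlapped, with a log2 fold change of 0.037 (SE 0.067, 95% interval -0.12 to 0.19, adjusted p = 0.870). Its relative Otx2 was lower and less even, at 0.75, 3.72 and 1.23 FPKM in libraries labelled cKO and 3.53, 4.91 and 2.04 FPKM in WT, so that Otx1 held between 71.0% and 94.1% of the summed FPKM of the pair.

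Zbtb20 (identifier 56490, chromosome 16, 42875689 to 43634392), a BTB zinc finger protein of hippocampal pyramidal neurons that also acts in astrocyte formation in mice, was the most variable of the 9. It was at 10.8, 8.28 and 7.56 FPKM in libraries labelled cKO and at 9.84, 12.2 and 7.49 FPKM in WT. Both groups ran from about the same low value, and WT replicate 2 was the highest of all. Its coefficient of variation over the 6 libraries was 20.2%, and only 9.62% of tested genes had a larger one. The log2 fold change was -0.13 (SE 0.17, 95% interval -0.51 to 0.26, adjusted p = 0.819), the widest interval among these genes. It turned to 0.027 without WT replicate 2, to 0.20 against WT replicate 3 alone and to 0.55 with the Y-linked transcripts as a covariate (adjusted p = 0.921). GENCODE lists 12 protein-coding transcripts for this gene, and a value per gene does not tell them apart.

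Nfix (identifier 18032, chromosome 8, 84704712 to 84801238), which holds adult neural stem cells in quiescence in mice, was both the most abundant of the 9 and the most even. It was at 73.3, 76.4 and 76.1 FPKM in libraries labelled cKO and at 75.2, 78.3 and 77.1 FPKM in WT. The ranges overlapped, and 98.9% of tested genes had a larger coefficient of variation than its 2.23%. The log2 fold change was -0.029 (SE 0.051, adjusted p = 0.868), with a 95% interval of -0.15 to 0.088, which corresponds to 90.3% to 106% of the WT level of FPKM + 1. Lyl1, which overlaps Nfix on the other strand, did not exceed 0.50 FPKM in any library.

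Nfia (identifier 18027, chromosome 4, 97578066 to 98118876), an early trigger of astrocyte formation, was at 19.3, 18.5 and 18.4 FPKM in libraries labelled cKO and at 19.1, 20.3 and 19.2 FPKM in WT. The ranges overlapped through replicate 1 of the libraries labelled cKO, and the log2 fold change was -0.054 (SE 0.056, 95% interval -0.18 to 0.075, adjusted p = 0.757). Nfib (identifier 18028, chromosome 4, 82290173 to 82506751), which acts with Nfia in the maturation of hippocampal and cortical progenitors, was at 33.0, 33.1 and 31.9 FPKM in libraries labelled cKO and at 35.1, 38.5 and 33.3 FPKM in WT. The groups did not overlap, but WT replicate 3 lay just above the highest library labelled cKO. The log2 fold change of Nfib was -0.12 (SE 0.065, 95% interval -0.27 to 0.028, adjusted p = 0.496), and with the Y-linked transcripts as a covariate it was 0.091 (adjusted p = 0.962).

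The family has another member, Nfic, which is best known from tooth root formation in mice. It was at 27.3, 27.2 and 27.8 FPKM in libraries labelled cKO and at 31.2, 29.4 and 30.6 FPKM in WT, without overlap and without passing (log2 fold change -0.14, SE 0.052, adjusted p = 0.333). The 4 genes together summed to 153, 155 and 154 FPKM in libraries labelled cKO and to 161, 166 and 160 FPKM in WT. The sum averaged 154 ± 1.19 and 162 ± 3.52 FPKM (SD, n = 3 each, libraries labelled cKO first), or 94.9% of the WT mean. The sum was formed after the values had been seen and is a description. The groups of the sum did not overlap, and 10.2% of single tested genes were likewise lower without overlap. Scaling the same 6 libraries again is no independent test. After scaling to a common median the sum was 96.7% of the WT mean. The groups then nearly touched, with the highest library labelled cKO at 158.8 FPKM and the lowest WT library at 159.6 FPKM. After quantile normalization the sum was 95.1% of the WT mean, and the same 2 values were 155.6 and 157.2 FPKM. Nfix supplied 46.8% to 49.3% of the sum, Nfib 20.7% to 23.1%, Nfic 17.5% to 19.4% and Nfia 11.9% to 12.6% over the 6 libraries.

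**Figure D2:**
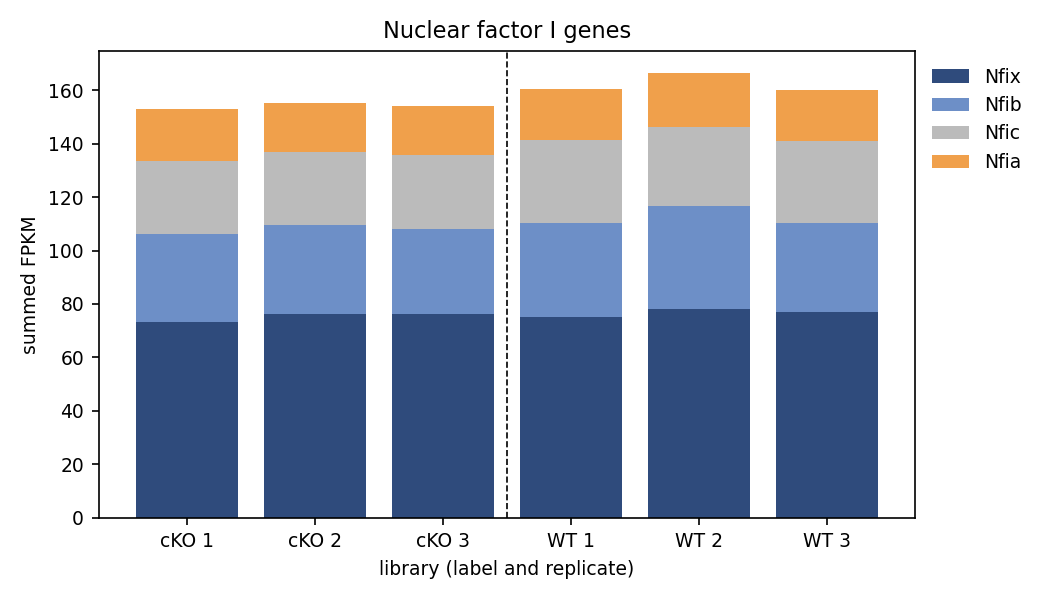
Summed FPKM of the nuclear factor I genes in each library, with libraries labelled cKO on the left and WT on the right, and colours for the 4 genes. The bars reach 153 to 155 FPKM in libraries labelled cKO and 160 to 166 FPKM in WT, with Nfix as the largest part of each.

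Set side by side, none of the 9 genes passed an adjusted p of 0.05 (Benjamini-Hochberg over all 11596 tested genes), while 0.0259% of all tested genes did pass. At an unadjusted p under 0.05 the count was likewise 0 of 9, against 12.3% of all tested genes. Of the 9 genes, 7 had lower values in the libraries labelled cKO than in WT, against 55.5% of tested genes, and 2 (Pax6 and Otx1) had higher ones. The median log2 fold change was -0.098 over the 9 genes and -0.015 over all tested genes. The median size regardless of sign was 0.098 over the 9 genes and 0.077 over all tested genes. Groups that did not overlap, with the libraries labelled cKO lower, occurred in 1 of 9 genes (Nfib), against 10.2% of tested genes. In the other direction there were 0 of 9, against 7.07%. Both of these shares of 9 genes lie near the background. The 95% intervals of the 9 genes ran from 70.2% to 120% of WT on the scale of FPKM + 1. Without Zbtb20 these bounds are 80.7% and 114%.

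**Figure D3:**
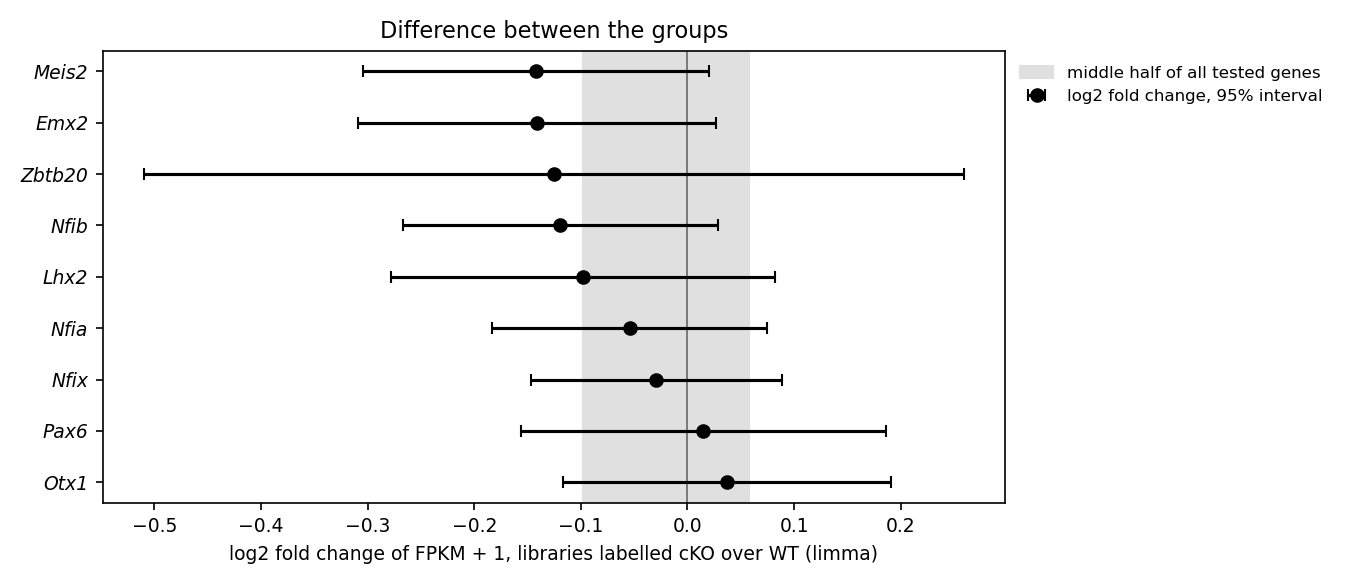
Log2 fold change of FPKM + 1 (libraries labelled cKO over WT) with 95% intervals from limma for the 9 genes. The grey band marks the range between the quartiles of all tested genes, from -0.098 to 0.058. Every interval includes 0, and that of Zbtb20 is the widest.

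WT replicate 2 was the highest of the 6 libraries for 7 of the 9 genes (Lhx2, Pax6, Meis2, Zbtb20, Nfia, Nfib and Nfix) and lay above the mean of the gene for all 9. Replicate 1 of the libraries labelled cKO was the lowest for 3 (Lhx2, Meis2 and Nfix). Without WT replicate 2 the genes lower in the libraries labelled cKO were 6 of 9 with a median of -0.028, without cKO replicate 3 they were 9 of 9 with a median of -0.042, and against WT replicate 3 alone they were 7 of 9 with a median of -0.033. Among the 9 genes, Lhx2 and Meis2 had the smallest root mean square difference between centred log2 values over the 6 libraries, at 0.042. Nfia and Nfix differed by 0.043. Genes that vary little lie close by this measure, so a small difference does not show that they moved together. Zbtb20, the most variable gene, stood farthest from the others, 0.18 from its nearest neighbour among them, Nfib.

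**Figure D4:**
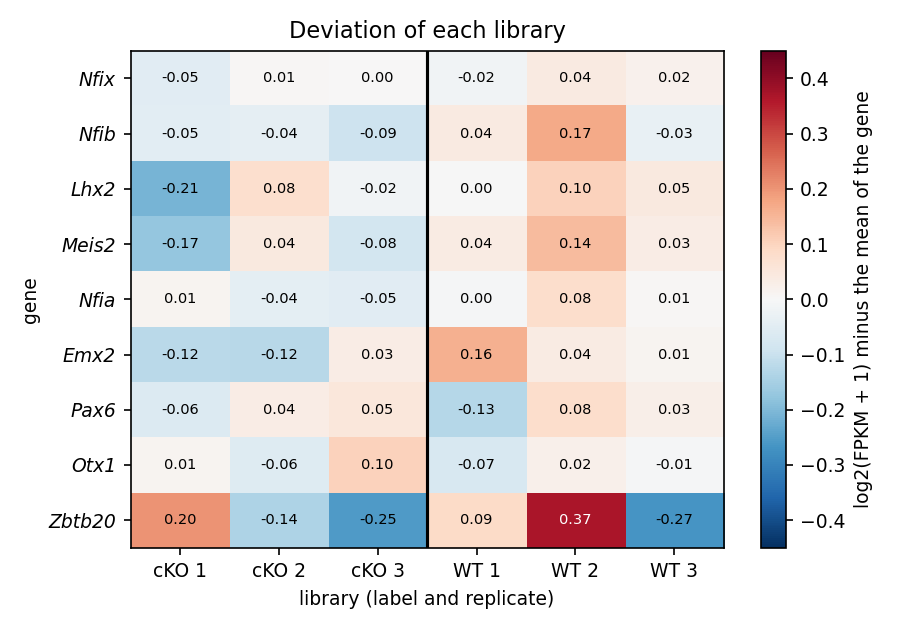
Deviation of each library from the mean of the gene, in log2(FPKM + 1), for the 9 genes (rows, by level) and 6 libraries (columns, labelled cKO left of the line and WT right of it). The column of WT replicate 2 is above the mean in all 9 rows, and the strongest colours are in the row of Zbtb20, from -0.27 to 0.37.

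By the same measure, the tested gene outside the 9 that lay nearest to each was Rbck1 for Emx2 (0.016), Adcy8 for Lhx2 (0.020), Ppp1r7 for Otx1 (0.0068), Zc3hc1 for Pax6 (0.015), Slc50a1 for Meis2 (0.011), Zfp972 for Zbtb20 (0.055), Hax1 for Nfia (0.0077), Nup160 for Nfib (0.016) and Gdpd1 for Nfix (0.013). These are the nearest of all tested genes over only 6 libraries, so a close neighbour is a description of these libraries.

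Transcripts of relatives and cofactors of these factors were mostly kept. Of 24 relatives and cofactors listed, 23 were in the table, 19 reached 1 FPKM in all 6 libraries (Emx1, Otx2, Ldb2 and Lmo2 did not) and 22 were tested. Of the tested genes 18 had lower and 4 had higher values in the libraries labelled cKO. Their median log2 fold change was -0.12, and none passed (unadjusted p under 0.05 for 4 lower and 1 higher). Of all tested genes, 55.5% were lower and 12.3% had an unadjusted p under 0.05. Meis1, Pbx4, Lmo1, Ssbp3, Nfic and Zbtb18 were lower without overlap between the groups, and Meis3 was higher without overlap. Among all tested genes these shares were 10.2% lower and 7.07% higher. Ldb1, the adaptor through which Lhx2 works, averaged 49.1 ± 2.14 FPKM in libraries labelled cKO and 48.5 ± 1.98 FPKM in WT. Lmo1, a LIM-only protein of the kind that competes with LIM-homeodomain factors for Ldb1, had the lowest p of this list. It was at 3.07, 3.68 and 1.69 FPKM in libraries labelled cKO and at 5.97, 6.33 and 5.74 FPKM in WT, with groups far apart (log2 fold change -0.92, SE 0.18, adjusted p = 0.176). Library weights gave WT replicate 1 a weight of 5.75, against 0.524 for replicate 2 and 0.720 for replicate 3. With these weights 129 genes passed, against 3 in the main fit, and Lmo1 was among them (adjusted p = 0.0325). Pbx4 averaged 3.53 ± 0.801 and 4.86 ± 0.344 FPKM (adjusted p = 0.303). Meis3 went the other way, at 11.95, 11.79 and 12.41 FPKM in libraries labelled cKO and 9.77, 9.28 and 11.5 FPKM in WT (log2 fold change 0.23, adjusted p = 0.323). Meis3 made up 27.6% to 30.3% of the summed FPKM of Meis1, Meis2 and Meis3 in the libraries labelled cKO and 21.9% to 26.3% in WT. The groups of Meis2 overlapped, and neither Meis2 nor Meis3 passed. This share is a description, and a shift within the family was not tested.

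Other factors of dorsal forebrain progenitors were mostly kept. Of 29 listed, 26 were in the table and 24 reached 1 FPKM in every library. Sox2, the core stem cell factor, averaged 128 ± 7.77 FPKM in libraries labelled cKO and 135 ± 11.8 FPKM in WT. Of the 24 tested genes 12 were lower and 12 higher, with a median of -0.0093, and none passed (unadjusted p under 0.05 for 2 lower and 4 higher, against 12.3% of all tested genes). Those of lowest p were Nr2f2, a nuclear receptor of the caudal and medial cortex, at 4.11 ± 0.255 FPKM in libraries labelled cKO and 2.82 ± 0.309 FPKM in WT (log2 fold change 0.42, adjusted p = 0.194), Six3 and Dmrt3. Six3, a homeodomain factor of the most anterior forebrain, was at 6.18, 10.8 and 5.71 FPKM in libraries labelled cKO and at 13.28, 12.96 and 12.15 FPKM in WT (log2 fold change -0.73, SE 0.19, adjusted p = 0.235). Six3 passed without cKO replicate 2 (log2 fold change -0.99, adjusted p = 0.0301) and with the same library weights (log2 fold change -0.81, adjusted p = 0.0483). Dmrt3, a factor of the dorsal and medial telencephalon, was at 4.59, 3.44 and 6.19 FPKM in libraries labelled cKO and 2.82, 1.92 and 2.82 FPKM in WT (log2 fold change 0.69, SE 0.18, adjusted p = 0.235). The values of Six3, Dmrt3, Nr2f2 and also Hes1 did not overlap between the groups, nor did those of Dmrta1, which was too low to be tested. Of all tested genes, 10.2% were lower and 7.07% higher without overlap.

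Factors of other regions and of neurons were mostly low. Of 33 midbrain, hindbrain and spinal cord factors, 9 were in the table, none reached 1 FPKM in all libraries, and the highest single value in the list was 1.09 FPKM, for En2. Of 17 ventral forebrain factors, 11 were in the table and 3 reached 1 FPKM in every library. Among them were Olig2, at 280 ± 35.5 FPKM in libraries labelled cKO and 298 ± 54.2 FPKM in WT, which is also a factor of glial progenitors, and Gsx1, at 1.26 ± 0.376 and 1.64 ± 0.280 FPKM (same order). All 5 tested genes of this list had lower values in libraries labelled cKO (median -0.23), and none passed (all tested genes: 55.5% lower, and 12.3% at an unadjusted p under 0.05, which 2 of the 5 reached, Nkx6-2 at adjusted p = 0.267 and Gsx2 at adjusted p = 0.398). Of 20 cortical and hippocampal neuron factors, 15 were in the table and 7 reached 1 FPKM in every library, with Cux1 at 34.2 ± 0.423 FPKM in libraries labelled cKO and 33.6 ± 1.64 FPKM in WT. Tbr1 and Eomes, markers of new glutamatergic neurons and their precursors, did not exceed 0.19 FPKM in any library. Prox1, the factor of dentate granule cells, averaged 2.18 ± 0.654 and 2.00 ± 0.114 FPKM (adjusted p = 0.894). In this list 3 tested genes were lower and 4 higher, with a median of 0.021, and none passed (unadjusted p under 0.05 for 1, against 12.3% of all tested genes: Bcl11a, log2 fold change -0.30, adjusted p = 0.283).

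**Figure D5:**
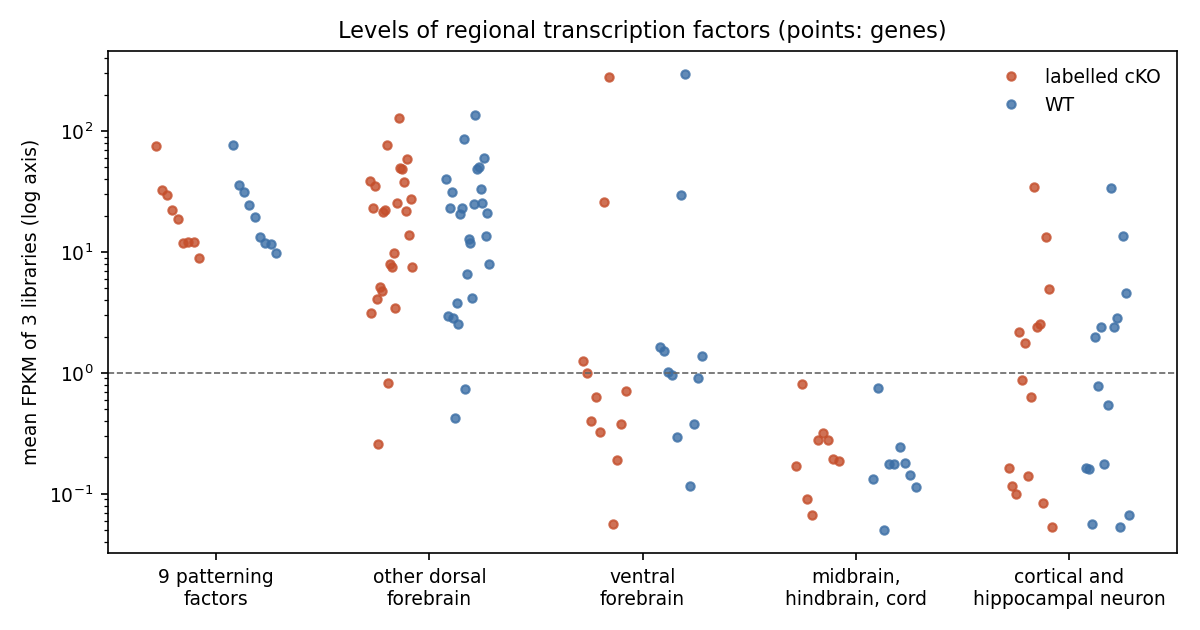
Mean FPKM of 3 libraries (log axis) for the 9 genes and 4 lists of regional factors, with 1 point per gene, libraries labelled cKO in red on the left and WT in blue on the right. The dashed line is 1 FPKM. All 9 genes lie above it, and the midbrain, hindbrain and spinal cord factors lie below it.

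Glial genes linked to nuclear factor I in mouse or chick were all present, in both directions. All 18 listed genes reached 1 FPKM in every library and were tested, with 10 higher and 8 lower in the libraries labelled cKO, a median of 0.076, and none passing (unadjusted p under 0.05 for 4 higher and 1 lower, against 12.3% of all tested genes). Sparcl1, a secreted astrocyte glycoprotein, was at 781, 661 and 829 FPKM in libraries labelled cKO and at 528, 470 and 580 FPKM in WT (log2 fold change 0.52, adjusted p = 0.189). Sparcl1 passed with the same library weights (log2 fold change 0.53, adjusted p = 0.0359). It also passed with replicate number as a block in the fit (adjusted p = 0.0377). Ezh2, a Polycomb methyltransferase that Nfib represses in mouse cortex, averaged 18.3 ± 2.11 FPKM in libraries labelled cKO and 22.9 ± 1.03 FPKM in WT (log2 fold change -0.32, adjusted p = 0.235). Glul, the glutamine synthetase of astrocytes, averaged 1215 ± 184 and 916 ± 38.7 FPKM (same order, adjusted p = 0.257). Gfap, Slc1a3 and Fabp7 overlapped between the groups, with Slc1a3 at 506, 518 and 536 FPKM in libraries labelled cKO and 530, 563 and 514 FPKM in WT.

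Markers of cell types were read beside these values, and their part in any difference was not tested. Of 8 astrocyte markers, 6 were higher and 2 lower in the libraries labelled cKO (unadjusted p under 0.05 for 4, against 12.3% of all tested genes). Of all tested genes, 55.5% were lower. The lowest p was that of Gjb6, a gap junction protein, at 21.1, 24.7 and 21.8 FPKM in libraries labelled cKO and 15.4, 12.2 and 13.1 FPKM in WT, without overlap (log2 fold change 0.69, adjusted p = 0.103). Their summed level ran from 4762 to 5074 FPKM in libraries labelled cKO and from 3663 to 4923 FPKM in WT, led by Gfap and Aldoc. Oligodendrocyte lineage markers were lower for 6 of 8, against 55.5% of all tested genes. An unadjusted p under 0.05 was reached by 3, Mbp, Mog and Cnp (adjusted p from 0.297 to 0.326), against 12.3% of all tested genes. This list summed to 1105 to 1289 FPKM in libraries labelled cKO and 1169 to 1514 FPKM in WT, led by Olig1 and Cnp. Neural stem cell markers were also lower for 6 of 8, none with an unadjusted p under 0.05. Of the neuron markers only Tubb3, Map2 and Elavl3 reached 1 FPKM in all libraries, and Dcx did not exceed 0.47 FPKM. Microglial markers summed to 7.72 to 20.6 FPKM in libraries labelled cKO and 14.8 to 15.3 FPKM in WT, led by C1qa and C1qb. The other lists were low: endothelial markers summed to at most 1.75 FPKM in any library, meningeal and fibroblast markers to at most 5.95 FPKM, led by Pdgfrb and Foxc1, with Col1a1 at or below 0.11 FPKM, and ependymal and choroid plexus markers to at most 33.4 FPKM, nearly all of it Foxj1, followed by Rsph1, with Ttr at or below 0.19 FPKM.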

How the data were processed

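The authors deposited 1 table of FPKM values for 6 libraries, per the file headers. The submitters' processing notes name Bowtie2 and the build GRCm38 (mm10). No source used here gives the counter, annotation, strand setting or filters, so reads of antisense neighbours (such as Emx2os and Pax6os1) cannot be told apart.

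Of 14327 genes, 11596 averaged 1 FPKM or more over the 6 libraries and were tested as log2(FPKM + 1) with limma 3.58.1 in R 4.3.3 (eBayes, trend in intensity). Tests were two-sided, and p-values were adjusted by Benjamini-Hochberg across every tested gene, with a threshold of 0.05. Fold changes on this scale understate those of low genes. The fit was tested on simulated data. Coordinates, names and promoter windows are RefSeq GRCm38.p6, and transcript counts and overlaps are GENCODE M21.

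The genes that pattern the dorsal forebrain and the hippocampus were listed by a rule that uses no measured value. Earlier results of these data were nevertheless known when these genes and the 6 lists of related genes were chosen. Named from the lists are the genes of lowest p, the most abundant markers and, chosen after their values were seen, Ldb1, Sox2, Emx1, Otx2, En2, Tbr1, Eomes, Prox1, Cux1, Col1a1, Ttr, Lyl1, Dcx, Hes1, Dmrta1, Ldb2, Lmo2, Meis1, Ssbp3, Zbtb18, Gjb6, Mbp, Mog, Gfap, Slc1a3, Fabp7, Olig2 and Gsx1. Some genes of the lists are counted but not reported here by name. The nearest gene has the smallest root mean square difference of centred log2 values. Replicate numbers are shared between the groups, but no source used here states that they are pairs, and the main fit did not use them. Alternatives are scaling, filters, variance models, weights, a replicate block, left-out libraries and a Y-linked covariate.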

Additional observations from a re-analysis of the deposited data

How the results depend on the processing

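None of the 9 genes passed under any of the 16 alternatives (lowest adjusted p = 0.162, Emx2 with library weights). Emx2, Lhx2, Nfia and Nfix kept their direction in all 16, and 133 of 144 log2 fold changes of the 9 genes did. The others reversed, and the cause was not tested. With the Y-linked covariate, Otx1 stood at -0.038, Pax6 at -0.045, Meis2 at 0.0072, Zbtb20 at 0.55 and Nfib at 0.091. Against WT replicate 3 alone, Pax6 stood at -0.019 and Zbtb20 at 0.20. Leaving out single libraries, Otx1 ranged from -0.0045 to 0.075, Pax6 from -0.046 to 0.059 and Zbtb20 from -0.29 to 0.027. Slc22a17 kept its sign throughout, from -0.45 with the covariate to -0.023 without WT replicate 3.

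The count of genes past the threshold, 3 in all, was 129 with library weights, 22 with the replicate block, and 0 without a filter, with quantile normalization, without an intensity trend, with the covariate or against WT replicate 3 alone. Leaving out single libraries it ran from 0 to 10. Median scaling lowered the share of tested genes below WT to 47.2%, while 7 of the 9 genes stayed lower. With library weights, which gave WT replicate 1 a weight of 5.75, 1 cofactor (Lmo1), 1 dorsal factor (Six3) and 1 glial gene (Sparcl1) passed. With the replicate block 1 glial gene (Sparcl1) passed. Without cKO replicate 2, 1 dorsal factor (Six3) passed, so that count ran from 0 to 1. Same-numbered libraries deviated with correlations of -0.043, 0.30 and 0.26 for replicates 1 to 3. Libraries of different numbers ran from -0.40 (cKO replicate 2 with WT replicate 3) to 0.17 across the groups. No source used here states pairs, so the block rests on shared numbers only. No fragment totals were at hand, which leaves the precision of low genes to the spread between 3 libraries.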
